A study of Homo sapiens with 6 samples.

Results

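The Notch pathway was followed through 10 genes, chosen from a list of symbols. They were 3 receptors (NOTCH1, NOTCH2 and NOTCH3), 3 ligands (JAG1, JAG2 and DLL1) and 4 target genes (HES1, HES4, HEY1 and NRARP), and they make up 10 of the 60649 gene rows of the count table. All 10 were found by gene identifier, and all 10 passed edgeR's filter on low counts. A list of 60 other pathway genes, sorted by role, is described after them.

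The RNA came from OVCAR5, an established epithelial ovarian cancer cell line. METTL3, the catalytic subunit of the enzyme that writes N6-methyladenosine (m6A) on mRNA, was delivered by lentivirus and stable cells were selected with puromycin. The vector control cells carried the empty PCDH lentivirus and were made side by side with the METTL3-overexpressing cells, although 1 field of the labels calls them parental. Each group had 3 libraries, numbered 1 to 3, and no drug treatment after selection is given for either. Nothing in the labels says whether the 3 libraries of a group were separate transductions or separate cultures, so p-values measure the spread between these libraries, which may be technical.

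Notch receptors are single-pass membrane proteins that bind Jagged or Delta-like ligands on a neighbouring cell. Binding leads to cleavage by an ADAM protease and then by gamma-secretase, and the freed intracellular domain joins RBPJ and a Mastermind coactivator on DNA to switch on HES, HEY and feedback genes. NOTCH3 is a receptor often studied in ovarian cancer, and the study's text mentions Notch3.

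RBPJ binds DNA at a core of TGGGAA, so the 250 bases before each RefSeq start site (GRCh38.p14) were searched for TGGGAA on both strands, TTCCCA being the same core read on the other strand. The set of RefSeq windows used here held 8 of the 10 genes, and DLL1 and HEY1 were missing from it and not searched. HES1 and HES4 were the 2 of the 8 that held the core. GENCODE 44 starts some of these genes further upstream than RefSeq, so of the 250 bases searched none lay outside the GENCODE gene for NOTCH2, 202 for JAG2 and 175 for HES4. Of 35116 windows of this length, 20.8% held at least 1 core and 2.9% held 2 or more. HES1, a transcriptional repressor and the classical Notch target, held 2 cores on the coding strand, starting 84 and 70 bases before its start with 8 bases between them. Its promoter is shown because it carries these 2 exact matches, with each core in capitals, at chr3:194135898-194136147 on the plus strand.
HES1 promoter: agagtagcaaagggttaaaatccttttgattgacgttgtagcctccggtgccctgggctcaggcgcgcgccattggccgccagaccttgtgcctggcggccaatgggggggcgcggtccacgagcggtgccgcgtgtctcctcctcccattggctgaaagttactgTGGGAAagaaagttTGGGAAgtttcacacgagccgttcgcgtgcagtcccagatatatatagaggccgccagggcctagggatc
HES4, a close relative of HES1, held 1 core on its coding strand, starting 76 bases before its RefSeq start. The windows around the cores of both genes are set side by side, HES1 from chr3:194136059-194136088 (plus strand) and HES4 from chr1:1000149-1000178 (minus strand), because a 12-base run is common to them.
HES1 cores: tactgTGGGAAagaaagttTGGGAAgtttc
HES4 core: gagtgTGGGAAagaatgcggagccgggttc
The shared run, tgTGGGAAagaa, was picked as the longest one common to the HES1 and HES4 windows. It was held on either strand by 6 of the 35116 windows, a count that includes these 2. Most of the 30 bases shown for HES4 lie inside the GENCODE gene. A match to these letters is a description of the sequence and not a measured binding site. Sites that depart from TGGGAA were not searched for, so the matches need not be all the RBPJ sites of a window or its paired ones.

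Total counts ranged from 96633925 to 125463386 per library. METTL3 was at 152, 165 and 175 CPM (counts scaled by TMM to a common library size) in replicates 1, 2 and 3 with METTL3 overexpression, against 80.6, 68.6 and 71.6 CPM in those with the vector, so the groups did not overlap (log2 fold change 1.16 with a standard error, SE, of 0.117; Benjamini-Hochberg adjusted p = 0.072 by the quasi-likelihood test of edgeR). The 6 epithelial markers summed to between 6018 and 9492 CPM in the 6 libraries. The 4 fibroblast markers summed to at most 2.93 CPM, almost all PDGFRB, the 4 endothelial markers to at most 0.78 CPM and the 4 immune markers to at most 0.168 CPM. Of the ovarian lineage markers, WT1 was at no more than 0.204 CPM, whereas PAX8 was at 6.38 to 11.6 CPM. MUC16 was at 49.4 CPM in METTL3-overexpressing replicate 1, the library in which NOTCH3 was highest, and at 1.98 to 7.2 CPM in the other 5, and its part in the NOTCH3 values was not tested. Replicate 1 of both groups stood apart. On the first principal component of log2 CPM, which held 40.6% of the variance, they were at -53.3 and -42.6, and the other 4 libraries lay between 6.52 and 41.1. Results are therefore given for all 6 libraries and for replicates 2 and 3 of each group. The second set was chosen on these values and leaves 2 libraries a group, so its p-values measure only the spread left among those libraries. Between 67.6% and 70.5% of counts from 1 to 20 were even, so counts divided by 2 were also tested, and no call on a Notch member changed.

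In the OVCAR5 libraries NOTCH2 was the leading receptor, JAG1 and JAG2 the leading ligands, and HES1 and HES4 the leading targets. Levels of different genes were compared per length, as RPKM, the TMM-scaled CPM divided by the kilobases of exon. Over the 6 libraries the order of the mean levels was HES1 at 17.9 RPKM, HES4 at 15.7, NOTCH2 at 9.73, NRARP at 8.43, JAG1 at 4.75, JAG2 at 4.32, NOTCH1 at 3.55, NOTCH3 at 1.85, HEY1 at 0.553 and DLL1 at 0.105. Neighbours in this order whose ranges over the libraries did not overlap were HES4 and NOTCH2, NRARP and JAG1, NOTCH3 and HEY1, and HEY1 and DLL1. The ranges of all other neighbours overlapped. With the longest transcript as the length the order was the same, but HES4 and NOTCH2, NRARP and JAG1, and NOTCH3 and HEY1 then overlapped, and NOTCH2 and NRARP did not. HES1 was nevertheless above HES4, and NOTCH1 above NOTCH3, within each of the 6 libraries, while JAG1 was above JAG2 in 4 of 6 by exon length and in all 6 by the longest transcript.

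Per length, NOTCH2 took between 60.2% and 69.4% of the reads of the 4 receptors in every library. NOTCH1 took 14.9% to 25.9%. NOTCH3 took 17.3% in METTL3-overexpressing replicate 1 and between 10.3% and 11% in the other 5 libraries, so its share set 1 library apart rather than a group. NOTCH4, the receptor outside the 10 genes, was at 2.37% to 2.88% with METTL3 and at 3.35% to 5.42% with the vector, without overlap. The 5.42% was in vector control replicate 1, where the 4 receptors summed to 8.98 RPKM, beside 17.7 and 15.9 in replicates 2 and 3. NOTCH4 itself was at 4.74 CPM there, beside 5.79 and 5.34. Among the ligands, JAG1 took 47% to 52.7% and JAG2 43.1% to 49.6%, and DLL1, DLL3 and DLL4 shared the small remainder. Among these 5 canonical ligands nearly all reads per length were thus Jagged (the non-canonical ligand DLK2 was at 1.89 RPKM), and DLL1 at 21 to 67 counts per library was the least abundant of the 10 genes.

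**Figure D1:**
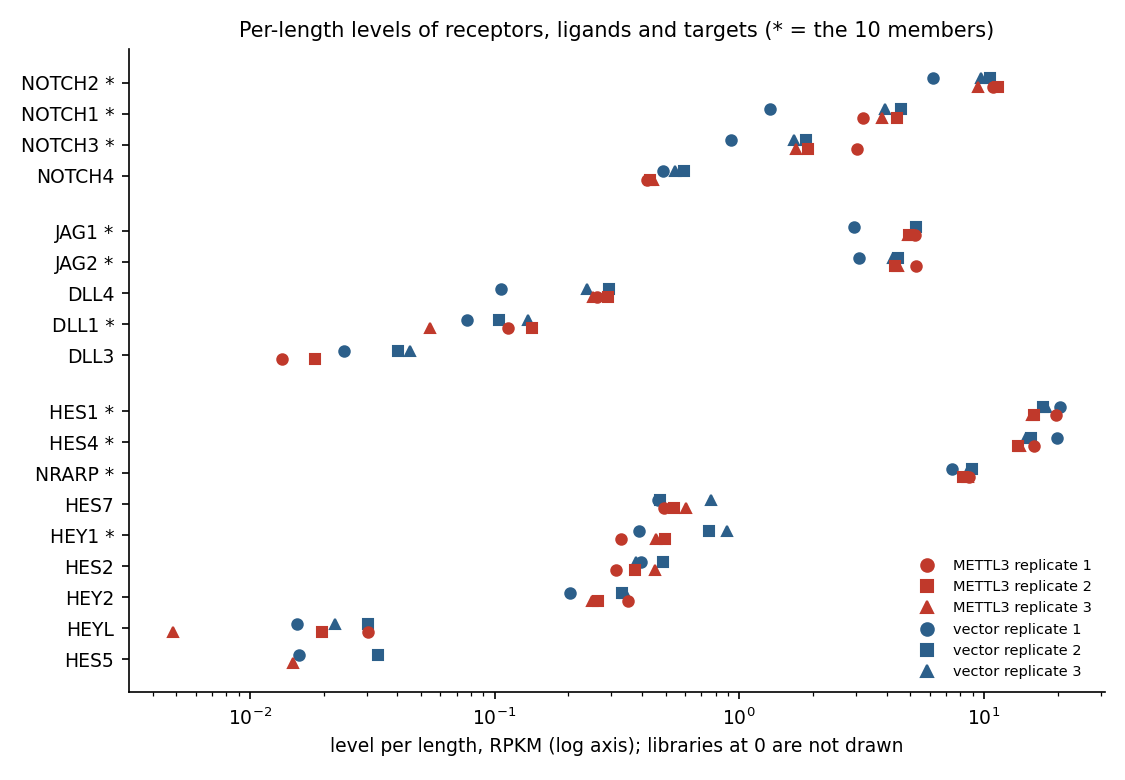
Level per length (RPKM, log axis) of each Notch receptor, ligand and target gene in each of the 6 libraries, red for METTL3-overexpressing and blue for vector control, with a marker shape per replicate number and an asterisk for the 10 members. HES1, HES4 and NRARP sit well above the other target genes, NOTCH2 (6.23 to 11.4 RPKM) above the other receptors, and JAG1 and JAG2 above the Delta-like ligands.

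The first question was whether the RNA of these genes differed between METTL3-overexpressing and vector control cells. On all 6 libraries, 0 of the 10 members passed an adjusted p under 0.05 by edgeR, against 0% of all 22038 genes tested. By unadjusted p under 0.05, edgeR counted 0 members (8.3% of all genes) and DESeq2 counted 1, HEY1 (and 2042 of all genes), of which 0 members passed after adjustment. All 3 receptors and 2 of 3 ligands had higher fitted values with METTL3, whereas 3 of 4 targets had lower ones. The median log2 fold change of the 10 members was 0.09, beside -0.02 over all genes. No member had groups that did not overlap, a pattern seen in 17.4% of all genes (8.47% higher and 8.93% lower with METTL3). In bulk RNA, a change in the number of expressing cells and a change in RNA per cell cannot be told apart.

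NOTCH1, a receptor at chr9:136494433-136546048 (minus strand, GENCODE 44, GRCh38), was at 40.2, 55.1 and 47.9 CPM with METTL3 and at 16.8, 57.5 and 49.3 CPM with the vector, here and below in the order of replicates 1, 2 and 3. Vector control replicate 1 was low, and the other 5 libraries overlapped. The log2 fold change of 0.21 (SE 0.381, edgeR adjusted p = 0.882) was smaller than its error. Within replicate numbers 1, 2 and 3 the log2 ratios of METTL3 to vector were 1.26, -0.06 and -0.04, so the difference was in number 1 alone.

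NOTCH2, the most abundant receptor here (chr1:119911553-120100779, minus strand), was at 182, 191 and 159 CPM with METTL3 and at 104, 178 and 163 CPM with the vector. Means were 177 ± 16.5 CPM (SD, n = 3) in METTL3-overexpressing and 148 ± 39 CPM (SD, n = 3) in vector control libraries, and again vector control replicate 1 was the low library. On the log2 scale the difference was 0.26 (SE 0.196, edgeR adjusted p = 0.711). The near-identical copies NOTCH2NLA, NOTCH2NLB, NOTCH2NLC and NOTCH2NLR summed to between 0.624 and 1.33 CPM, and reads that fit both NOTCH2 and a copy may have been split or left out, since the handling of such reads is not given in the sources used here.

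NOTCH3 (chr19:15159038-15200995, minus strand) was at 28.6, 17.9 and 16 CPM with METTL3 and at 8.71, 17.6 and 15.8 CPM with the vector. METTL3-overexpressing replicate 1 was the highest library and vector control replicate 1 the lowest, while the other 4 lay between 15.8 and 17.9 CPM. NOTCH3 had the largest positive fitted value of the 10 members, a log2 fold change of 0.57 (SE 0.299, edgeR adjusted p = 0.636, two-sided exact permutation p = 0.2). Its ratio was above 0 within each replicate number, as in 19.6% of all genes, but at 1.71, 0.03 and 0.01 on the log2 scale almost all of it came from number 1. Without METTL3-overexpressing replicate 1 the fitted value was 0.29, and without replicate 1 of both groups it was 0.02 (SE 0.0832).

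JAG1 (chr20:10637684-10673999, minus strand), the ligand mutated in Alagille syndrome, was at 48.5, 46 and 45.7 CPM with METTL3 and at 27.3, 49.3 and 48.5 CPM with the vector. Apart from vector control replicate 1, the libraries lay within a few CPM of one another. Its log2 fold change was 0.16 (SE 0.211, edgeR adjusted p = 0.83) on all 6 libraries and -0.10 without replicate 1 of both groups.

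JAG2 (chr14:105140982-105168824, minus strand), the other Jagged ligand, was at 33.9, 27.8 and 28.4 CPM with METTL3 and at 19.8, 28.4 and 27.3 CPM with the vector. Replicate 1 was highest with METTL3 and lowest with the vector, as for NOTCH3. Its fitted log2 difference was 0.25 (SE 0.164, edgeR adjusted p = 0.665). Another gene on the same strand overlaps 7.33% of the exonic bases of JAG2.

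DLL1 (chr6:170282206-170306565, minus strand), a Delta-like ligand, was near the lower end of what was tested, at 0.434, 0.541 and 0.208 CPM with METTL3 and at 0.295, 0.398 and 0.525 CPM with the vector. The groups were interleaved, and the log2 fold change of -0.04 was far smaller than its standard error of 0.405 (adjusted p = 0.986 from edgeR). FAM120B on the opposite strand overlaps 9.69% of its exonic bases.

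HES1 (chr3:194136148-194138732, plus strand), whose promoter with its 2 exact TGGGAA matches is printed above, was at 40.4, 32.9 and 32.4 CPM with METTL3 and at 42.3, 36 and 36.9 CPM with the vector. In both groups replicate 1 was the highest library, and METTL3-overexpressing replicate 1 was above vector control replicates 2 and 3. The log2 fold change was -0.12 (SE 0.132, edgeR adjusted p = 0.789). HES1 was lower with METTL3 within each replicate number, at log2 ratios of -0.07, -0.13 and -0.19.

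HES4 (chr1:998962-1000172, minus strand), a related repressor with 1 core in its window, was at 17.9, 15.4 and 15.7 CPM with METTL3 and at 22.3, 17.4 and 16.6 CPM with the vector. Replicate 1 was again the highest library in both groups, and the log2 fold change was -0.20 (SE 0.152, edgeR adjusted p = 0.712). It too was lower with METTL3 within each number (-0.31, -0.17 and -0.08). Of all 45 pairs of members, HES1 and HES4 had the most similar profiles over the 6 libraries in unadjusted CPM. The root-mean-square distance between their centred log2 CPM was 0.081, followed by NOTCH2 and JAG1 at 0.0996. After the adjustment for GC content and length described below, the profiles parted in vector control replicate 1. HES1 was then at 37.1 CPM there, beside 38.4 and 38.4 in vector control replicates 2 and 3. HES4 was at 25.2 CPM, beside 15.4 and 16.4. METTL3-overexpressing replicate 1 remained the highest of its group for both genes. Shared regulation of HES1 and HES4 was not tested.

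HEY1, a repressor related to the HES proteins, was at 1.8, 2.72 and 2.5 CPM with METTL3 and at 2.14, 4.12 and 4.91 CPM with the vector, which rests on between 203 and 543 counts per library. Vector control replicate 1 lay inside the METTL3 range, and the other 2 vector libraries lay above all METTL3 libraries. The log2 fold change of -0.67 (SE 0.316, edgeR adjusted p = 0.616, two-sided exact permutation p = 0.3) was the largest of the 10 in size. It was -0.40 without vector control replicate 3, -0.50 without METTL3-overexpressing replicate 1 and -0.95 without vector control replicate 1, and in none of these fits was it called. HEY1 was lower within each replicate number, at log2 ratios of -0.25, -0.60 and -0.98. HES1, HES4 and HEY1 were the 3 members lower in all 3 numbers, a pattern held by 20% of all genes.

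NRARP (chr9:137299631-137302271, minus strand), a small ankyrin-repeat protein that feeds back on the Notch intracellular domain, was at 23, 21.6 and 22.8 CPM with METTL3 and at 19.6, 23.7 and 23 CPM with the vector. The whole range over the 6 libraries was therefore 19.6 to 23.7 CPM, the narrowest in proportion among the 10 genes. The fitted log2 difference was 0.02 (SE 0.122, edgeR adjusted p = 0.969).

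**Figure D2:**
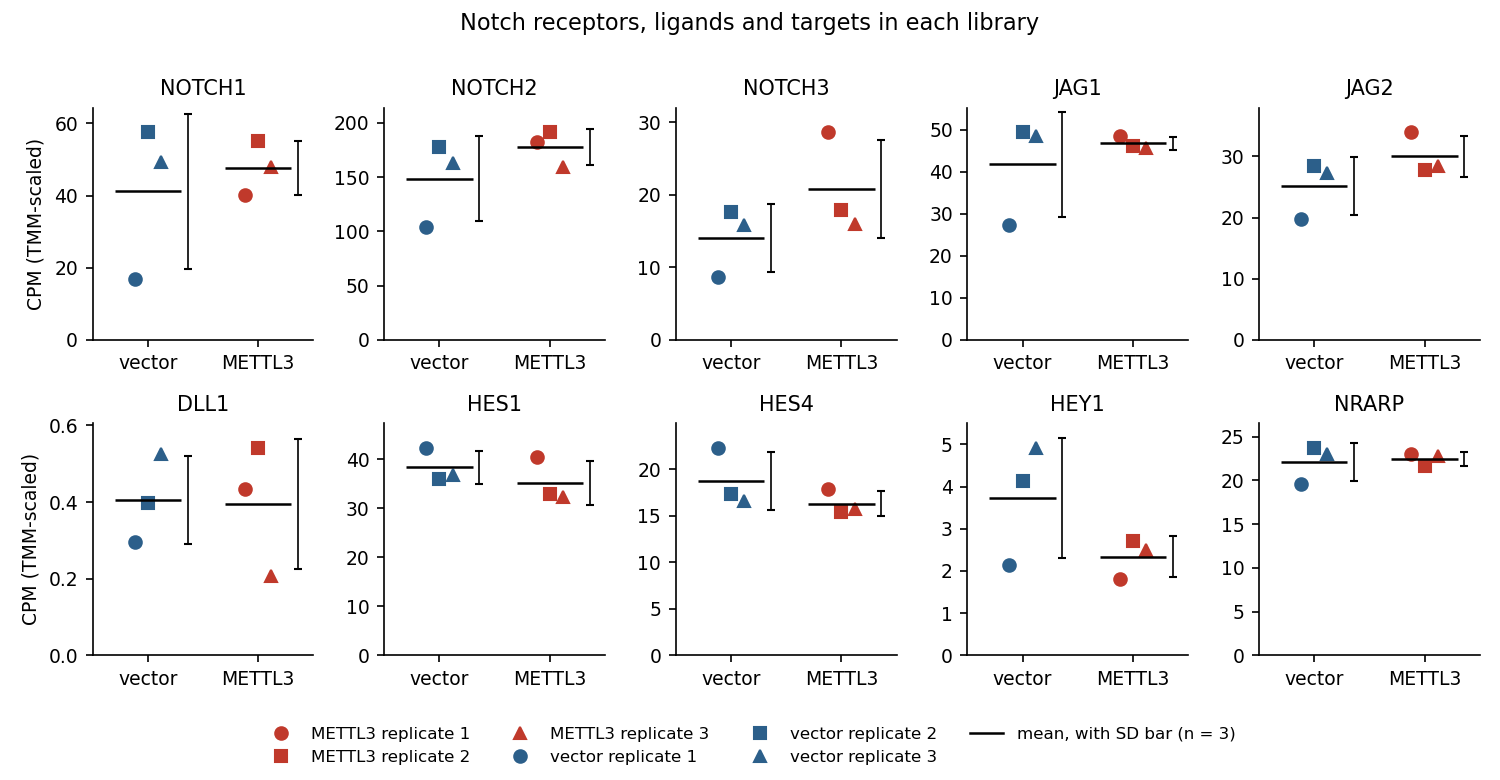
TMM-scaled CPM (linear axes from 0) of each of the 10 members in every library, vector control in blue and METTL3-overexpressing in red, with a marker shape per replicate number, a line at the group mean and a bar of 1 SD (n = 3). The blue circle, vector control replicate 1, is the lowest library for NOTCH1, NOTCH2, NOTCH3, JAG1, JAG2 and NRARP and the highest for HES1 and HES4, and for HEY1 vector control replicates 2 and 3 (4.12 and 4.91 CPM) lie above the METTL3 libraries.

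Vector control replicate 1 was the lowest of the 6 libraries for 6 of the 10 members (24.7% of all genes) and the highest for 2, HES1 and HES4 (30.1% of all genes). Compared with the mean of vector control replicates 2 and 3, NOTCH1 was at a log2 ratio of -1.67 in this library, HEY1 at -1.08, NOTCH3 at -0.94, JAG1 at -0.84, NOTCH2 at -0.71, DLL1 at -0.64, JAG2 at -0.49 and NRARP at -0.25, while HES1 was at 0.22 and HES4 at 0.39. Only 1.54% of all genes were lower than NOTCH1 on this measure. The library differed from its group with transcript length. The median ratio of all genes was 0.31 for transcripts under 1000 bases, -0.17 for those of 8000 to 10000 bases and -0.09 for longer ones. The 3 receptors have transcripts of 8680 to 11425 bases, whereas HES4 has 1040 and HES1 1575. HEY1 (3878 bases) and DLL1 (3779 bases) were of a length, 3000 to 4000 bases, at which the median was 0.00.

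With each library's trend of log2 CPM with GC content and length removed, an alternative chosen after seeing the data, vector control replicate 1 was at -1.06 for NOTCH1, -0.67 for JAG1, -0.49 for NOTCH2 and -0.34 for NOTCH3. HEY1 was still at -1.13. JAG2 moved to 0.07 and HES1 to -0.05, whereas HES4 moved to 0.66. It was still the lowest library for NOTCH1, NOTCH2, NOTCH3, JAG1 and NRARP, and the cause was not tested. METTL3-overexpressing replicate 1 was the highest library for 2 members, NOTCH3 and JAG2 (25.1% of all genes). Without removal of the trend, it departed from its own group by -0.54 for HEY1 to 0.75 for NOTCH3. This was less than for vector control replicate 1 in every member but HES1 (0.31, beside 0.22).

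**Figure D3:**
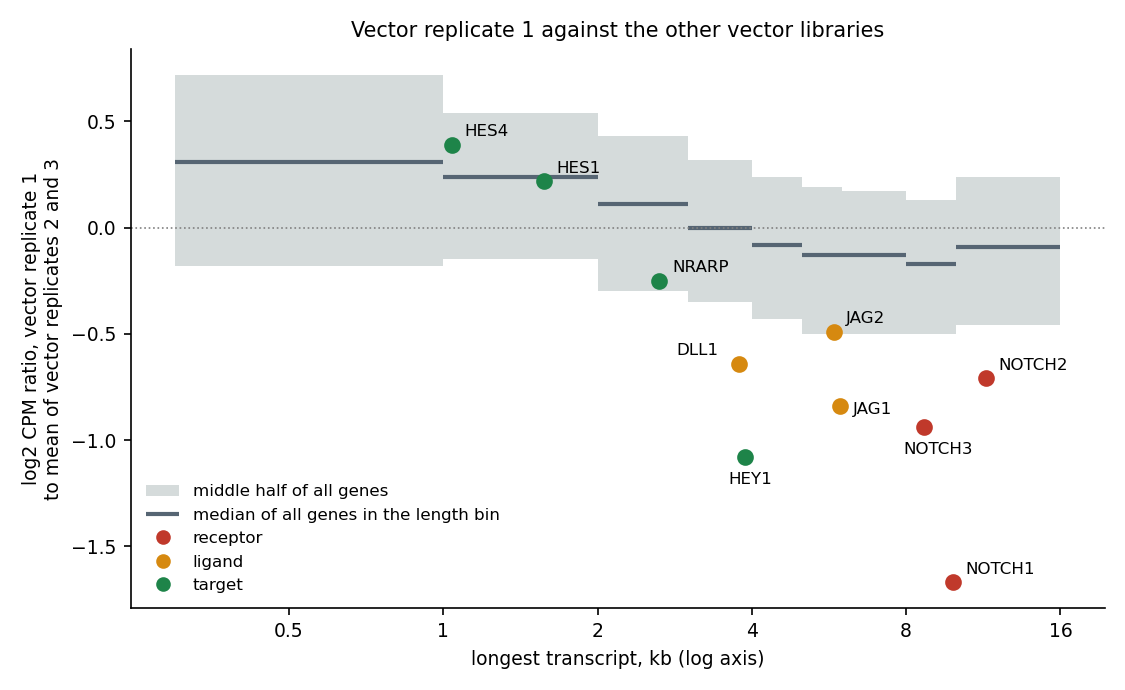
Log2 ratio of CPM in vector control replicate 1 to the mean of vector control replicates 2 and 3, against the longest transcript of each gene in kilobases (log axis); points are the 10 members coloured by role, dark lines the median of all genes in a length bin and grey bands the range between the lower and upper quartiles. The median falls from 0.31 to -0.17 up to 10000 bases, and 6 members lie below the bands, from NOTCH1 at -1.67 to DLL1 at -0.64.

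Without replicate 1 of both groups, leaving 2 libraries a group, 1 of the 10 members passed an adjusted p under 0.05 in edgeR's test, against 15.2% of all 22046 genes. It was HEY1, which fell by 0.79 on the log2 scale (SE 0.139, adjusted p = 0.00121), in a direction in which 8.59% of all genes were called. The count of 1 in 10 was not above the share of all genes. NOTCH1, NOTCH2 and NOTCH3 were at -0.05, 0.04 and 0.02 in this fit with standard errors of 0.0799 to 0.0832, JAG1 at -0.10, JAG2 at 0.01 and NRARP at -0.07, each of them within 2 standard errors of 0. HES1 at -0.16 (adjusted p = 0.0914 from edgeR) and HES4 at -0.13 (adjusted p = 0.289) were lower without passing the test. With the GC and length trend also removed, HEY1 was at -0.76 (adjusted p = 0.000671 from edgeR) and HES1 at -0.17 (adjusted p = 0.0332), which made 2 members called of 10 beside 21.5% of all genes, or 9.24% in the lower direction, while HES4 had an adjusted p of 0.965.

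**Figure D4:**
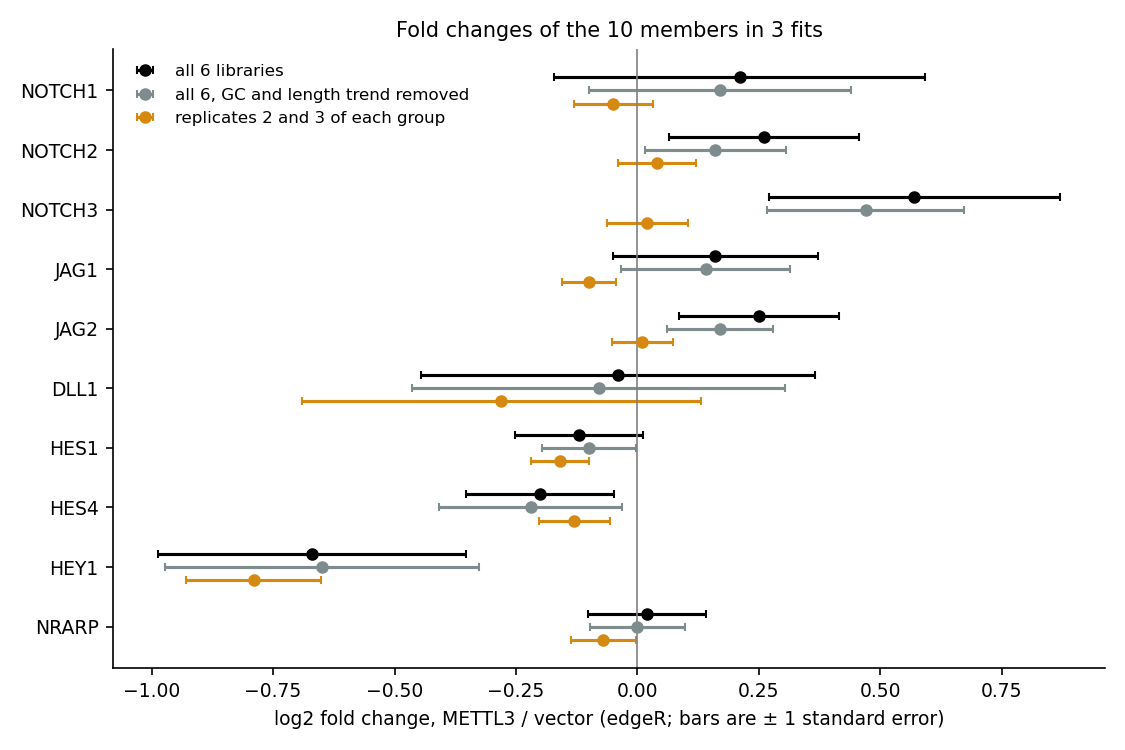
Log2 fold change of METTL3-overexpressing over vector control for the 10 members in 3 edgeR fits, with bars of 1 standard error; black is all 6 libraries, grey all 6 with the GC and length trend removed, and orange replicates 2 and 3 of each group. The receptors and Jagged ligands move to near 0 in orange (NOTCH3 from 0.57 to 0.02), and HEY1 lies between -0.65 and -0.79 in the 3 fits.

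The other 60 pathway genes were grouped by role, and 56 passed the filter on all 6 libraries. None was called by edgeR's test on all 6 libraries (0%, as for all genes), 7 had an unadjusted p under 0.05 (12.5%, beside 8.3% of all genes), and DESeq2 called 2, DTX4 and MAML2 (3.57%, beside 1.47% of all genes, or 1.01% in the higher direction that both share). The fitted values were higher with METTL3 for 30 and lower for 26, with a median log2 fold change of 0.04. All 7 genes with an unadjusted p under 0.05 were higher with METTL3. Over all genes, 1830 had an unadjusted p under 0.05 by edgeR, and 969 of those (4.4% of all genes) were higher. The 7 were MAML2, CREBBP and EP300 of the coactivator complex, the ubiquitin ligases DTX2 and DTX4, the fringe enzyme MFNG and the corepressor SPEN. For 13 of the 56 the groups did not overlap (23.2%, beside 17.4% of all genes). For 31 of the 56 vector control replicate 1 was the lowest library, beside 24.7% of all genes.

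MAML2, a Mastermind coactivator that bridges the Notch intracellular domain and RBPJ to acetyltransferases, was at 53.9, 47.3 and 42.1 CPM with METTL3 and at 28.3, 29.8 and 30.3 CPM with the vector. The groups were well apart and replicate 1 did not decide the direction. The log2 fold change was 0.70 (SE 0.124, edgeR adjusted p = 0.303, 0.000839 from DESeq2, two-sided exact permutation p = 0.1, the smallest possible with 3 libraries a group). It was 0.67 (adjusted p = 0.0442 from edgeR) without vector control replicate 1. Without replicate 1 of both groups, which leaves 2 libraries a group chosen on these data, it was 0.57 (adjusted p = 4.37e-05 from edgeR). Genes on the opposite strand overlap 8.96% of its exonic bases, and whether the counting used strand is not given in the sources used here.

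DTX4, a Deltex ubiquitin ligase that acts on Notch receptor trafficking, was at 140, 104 and 94.7 CPM with METTL3 and at 81.6, 69.8 and 63.3 CPM with the vector. Every METTL3 library was above every vector library, and the log2 ratios within replicate numbers were 0.78, 0.58 and 0.58. Its log2 fold change was 0.66 (SE 0.171, edgeR adjusted p = 0.417, 0.0362 from DESeq2), and without replicate 1 of both groups it rose by 0.58 (adjusted p = 2.84e-05 from edgeR). Its relative DTX2 was at 49.5, 55.7 and 54.6 CPM with METTL3 and at 33.9, 42.6 and 38.6 CPM with the vector, again without overlap, and without replicate 1 of both groups it rose by 0.44 on the log2 scale (adjusted p = 0.000178 from edgeR).

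CREBBP, an acetyltransferase of the coactivator complex, was at 151, 127 and 108 CPM with METTL3 and at 67.5, 92.9 and 91.5 CPM with the vector. EP300, its close relative, was at 244, 179 and 137 CPM with METTL3 and at 90.9, 131 and 125 CPM with the vector. For both genes replicate 1 was the highest library with METTL3 and the lowest with the vector. Without replicate 1 of both groups the log2 fold change of CREBBP went from 0.61 to 0.35 (adjusted p = 0.00435 from edgeR) and that of EP300 from 0.69 to 0.30 (adjusted p = 0.191). SPEN, an RBPJ corepressor, was at 176, 161 and 128 CPM with METTL3 and at 86.8, 130 and 117 CPM with the vector. Its log2 fold change went from 0.48 to 0.23 (adjusted p = 0.21 from edgeR). With the GC and length trend also removed in replicates 2 and 3, EP300 and SPEN were called, beside 21.5% of all genes. EP300 was then at 0.32 (adjusted p = 0.0296 from edgeR) and SPEN at 0.22 (adjusted p = 0.00917 from edgeR).

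Without replicate 1 of both groups, 16 of 58 pathway genes were called by edgeR's test (27.6%, beside 15.2% of all genes), 7 higher (6.66% of all genes) and 9 lower (8.59% of all genes). No role was tested as a group, and the counts by role below stand beside these shares of all genes. In the group of receptor processing and glycosylation, 2 of 8 rose and 2 fell. MFNG rose by 0.62 and LFNG by 0.22 on the log2 scale, both of them fringe enzymes that extend O-fucose on Notch, whereas FURIN, the protease that cuts the receptor on its way to the surface, fell by 0.23 and GXYLT1, which adds xylose to O-glucose, fell by 0.26. MFNG was at 3.44, 3.57 and 4.35 CPM with METTL3 and at 2.97, 2.48 and 2.67 CPM with the vector, so it was also apart on all 6 libraries. For FURIN vector control replicate 1 was the lowest library at 105 CPM and METTL3-overexpressing replicate 1 the highest at 211 CPM, and its fitted value on all 6 libraries was 0.16.

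Of the 10 ubiquitination genes in the same fit, DTX2 and DTX4 rose, and DTX3 fell by 0.51 and NEURL1B, a ligase for Notch ligands, by 0.62. NEURL1B was at 8.41, 12.4 and 11.2 CPM with METTL3 and at 7.1, 18.8 and 17.4 CPM with the vector. Vector control replicate 1 thus went against the other vector libraries, as it did for HEY1. DTX3 was at -0.33 on all 6 libraries (adjusted p = 0.656 from edgeR), and vector control replicate 1 was its lowest library at 9.95 CPM. In the coactivator complex MAML2 and CREBBP rose and 0 of 8 fell. Of 13 corepressors, KDM5A, a histone demethylase, rose by 0.22 and TLE2, a Groucho protein, fell by 0.41. On all 6 libraries KDM5A was at 0.09 and TLE2 at -0.11 (adjusted p = 0.846 and 0.885 from edgeR). For TLE2, vector control replicate 1 was the lowest library at 10.4 CPM.

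Of the remaining roles, NOTCH4 fell by 0.38 (adjusted p = 0.0315 from edgeR) in this fit, from 5.79 and 5.34 CPM with the vector to 4.2 and 4.34 CPM with METTL3, and in replicate 1 it was at 4.74 and 4.1 CPM. With the GC and length trend removed it was at -0.30 and no longer called (adjusted p = 0.061 from edgeR). On all 6 libraries NOTCH4 was the receptor whose groups did not overlap in CPM (two-sided exact permutation p = 0.1). Of all genes, 17.4% did not overlap, with 8.93% lower with METTL3. DLK2, a non-canonical ligand, fell by 0.65, HES6, which inhibits HES1 protein, by 0.41, and NUMBL, an endocytic inhibitor of Notch, by 0.21. On all 6 libraries DLK2, HES6 and NUMBL were at -0.49, -0.24 and -0.14 (adjusted p = 0.658, 0.664 and 0.905 from edgeR). Vector control replicate 1 was the lowest library for DLK2 (2.73 CPM) and for NUMBL (15.8 CPM). The call on NUMBL was also lost with the trend removed (-0.13, adjusted p = 0.0891 from edgeR). None of the 2 ADAM sheddases, the 6 gamma-secretase genes or the 4 other tested target genes (HES2, HES7, HEY2 and HEYL) was called in replicates 2 and 3, though APH1A of gamma-secretase was with the trend removed (0.17, adjusted p = 0.00758 from edgeR). ADAM10 was at 557 to 599 CPM and ADAM17 at 109 to 133 CPM over the 6 libraries.

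**Figure D5:**
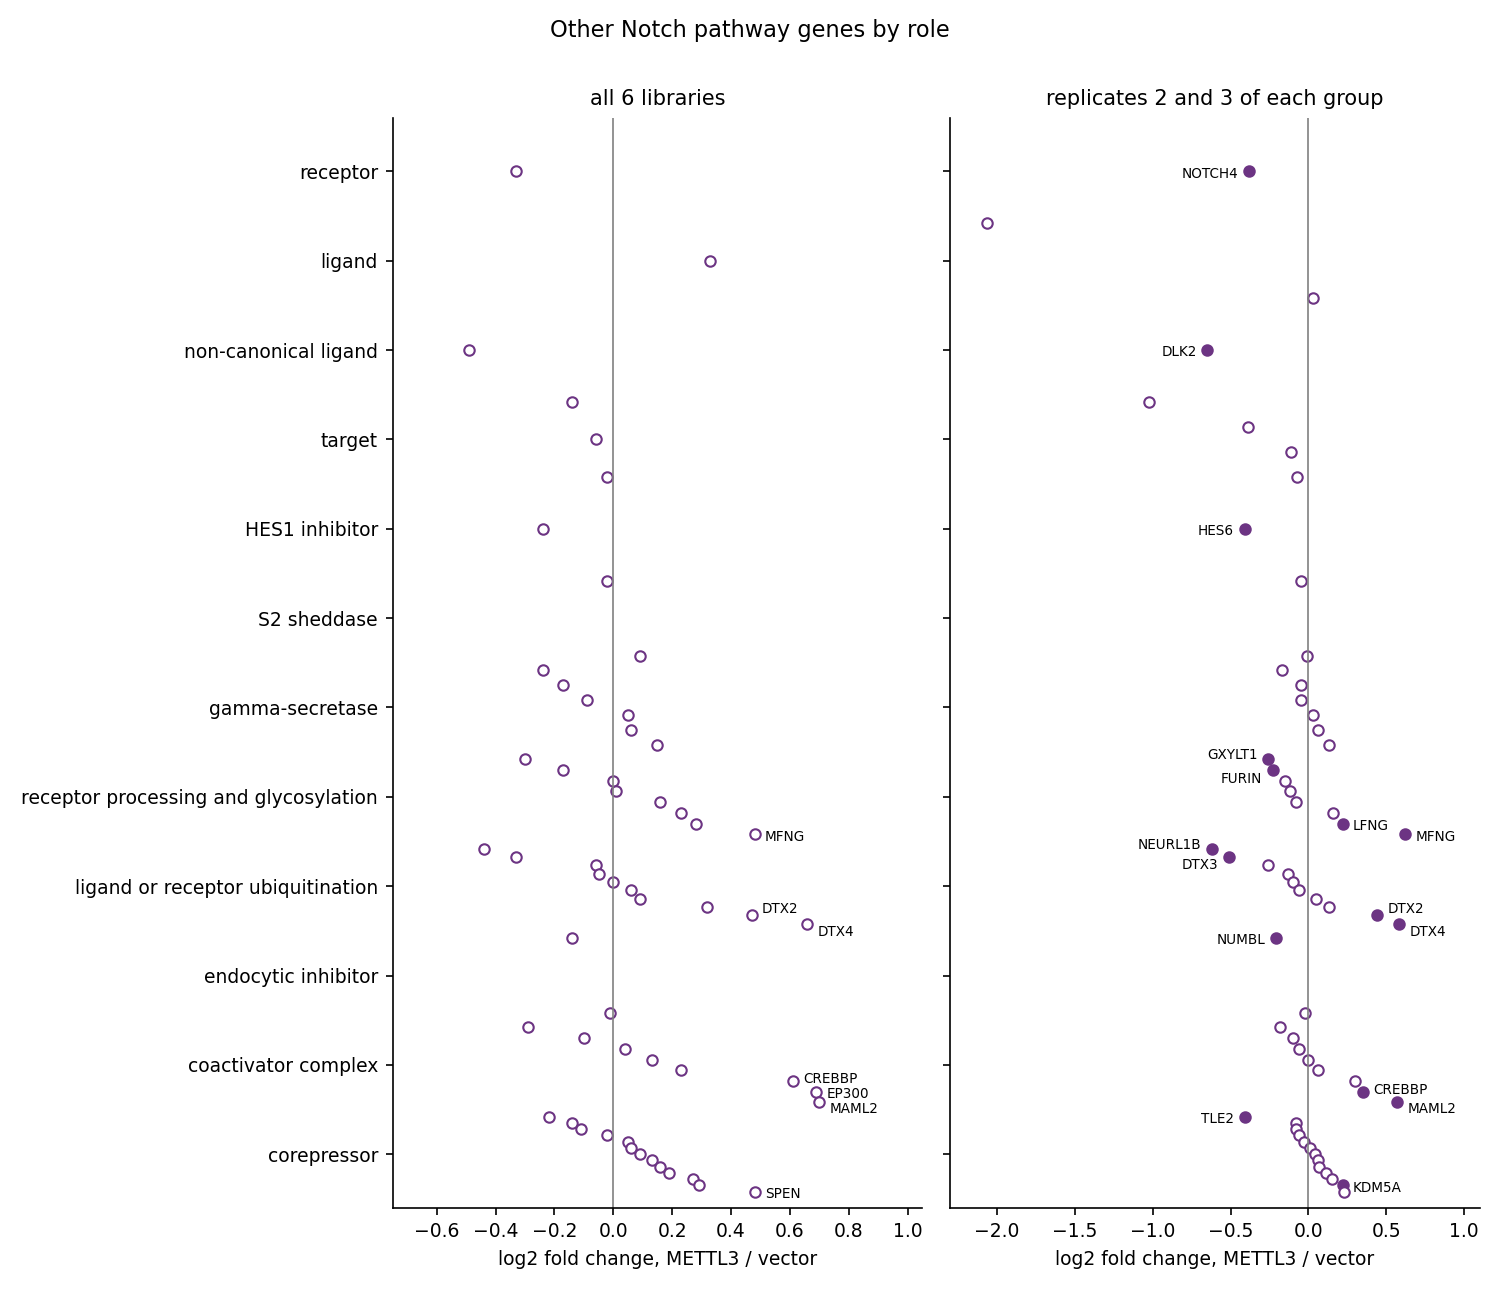
Log2 fold change of METTL3-overexpressing over vector control (edgeR) for the other Notch pathway genes by role, on all 6 libraries (left, 56 genes) and on replicates 2 and 3 of each group (right, 58 genes). Filled points passed an adjusted p under 0.05, 0 on the left and 16 on the right; names on the left mark the 7 genes with an unadjusted p under 0.05, among them MAML2 at 0.70.

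By level per exon length, the leading gene of each role was HDAC1 among corepressors (66.2 RPKM), SNW1 in the coactivator complex (54), POFUT1 among glycosylation and processing genes (39.6), ADAM10 among sheddases (36.3), APH1A in gamma-secretase (33.2), DTX4 among ubiquitin ligases (14.4), NUMB among endocytic inhibitors (12.3), HES6 (6.43), DLK2 (1.89), HES7 among further targets (0.558), NOTCH4 (0.487) and DLL4 among further ligands (0.241). With the longest transcript as the length ITCH (22 RPKM) and DTX2 (16.6) were above DTX4 (15.4), and the leading gene of the other roles was the same. The leading genes from HDAC1 to NUMB in this list thus had higher mean levels than NOTCH2, the most abundant receptor at 9.73 RPKM. DLK1 was at 0 in all 6 libraries, and HES5 and HEYL were at no more than 0.0334 RPKM.

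The genes whose profile over the 6 libraries was most like that of NOTCH3 were found among 14684 genes with a mean of at least 1 CPM, by the root-mean-square distance between centred log2 CPM values. They were IQCN at 0.102, SREBF1 at 0.11 and GPR153 at 0.115, where NOTCH3 itself spread by 0.501 about its mean. SREBF1, the sterol and lipid regulator, was at 233, 148 and 140 CPM with METTL3 and at 87.9, 147 and 128 CPM with the vector. All 3 repeated the NOTCH3 pattern of a high METTL3-overexpressing replicate 1 and a low vector control replicate 1, and 6 libraries that share this feature give no more than a description.

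Because METTL3 writes m6A at the sequence pattern DRACH (D is A, G or T, R is A or G, and H is A, C or T), the pattern was counted in the longest transcript of each member. JAG1 held 21.4 per kilobase, HEY1 20.6, NOTCH2 19.7 and HES1 19, beside a median of 18.7 over 14873 tested protein-coding genes. DLL1 held 15.1, HES4 13.5, NOTCH1 13.4, NOTCH3 13.4, NRARP 13.3 and JAG2 12.1, so 6 of the 10 members were below that median and 4 above it. NOTCH3 was at percentile 6.51 of those genes. The count is of letters in a transcript, and methylation was not measured in these libraries.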

How the data were processed

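The data are 6 OVCAR5 mRNA libraries (3 METTL3-overexpressing, 3 vector control). The authors deposited raw counts per gene, whole numbers without normalization. The submitters' processing notes name fastp, HISAT2, Subread featureCounts and GRCh38 (hg38), and versions, annotation release, strand setting and handling of multi-gene reads are not given in the sources used here. The labels describe a stranded TruSeq kit with paired-end reads, whereas the study's methods describe an NEBNext kit with single-end reads. Gene identifiers were matched without version to GENCODE 44, which named 60507 of the 60649 rows. Total counts ranged from 96633925 to 125463386.

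The whole table was filtered with filterByExpr, scaled by TMM and tested with glmQLFit (robust) and glmQLFTest in edgeR 4.0.16 (R 4.3.3). P-values were adjusted by Benjamini and Hochberg's method, with calls under 0.05. Standard errors were derived from the fitted fold change and its F statistic. CPM and RPKM (union of exons) were computed from the deposited counts. The script was tested on simulated data. Alternatives were DESeq2 1.42.0, RLE and upper-quartile scaling, no low-count filter, a minimum of 10 counts throughout, a replicate block, leaving out each library, replicates 2 and 3 alone, and counts divided by 2. Removal of each library's GC and length trend by splines with 5 degrees of freedom, and the longest transcript as the length, were added after seeing the data.

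The replicate numbers are shared by both groups. Deviations of same-numbered libraries from their group means correlated at 0.338, 0.123 and 0.174, all over 0.1, which met the rule for pairing on the values and not on any label. The reported fits have no block, and the fit with the block is an alternative. Differently numbered libraries also reached 0.208 and 0.133.

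The 10 members, the pathway list and the use of replicates 2 and 3 were chosen with earlier results of these data known. Genes named are the 10 members, METTL3, every pathway gene with an unadjusted p under 0.05 on all 6 libraries or an adjusted p under 0.05 in replicates 2 and 3, the highest pathway gene per length of each role, and the 3 profiles nearest to NOTCH3. Other genes named (paralogs, overlapping genes, genes at or near 0, genes not called) were added as context after their values were seen. Promoter windows came from RefSeq (GRCh38.p14).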

Additional observations from a re-analysis of the deposited data

How the results depend on the processing

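Over all genes edgeR called 0 on all 6 libraries. DESeq2 called 280 (193 higher and 87 lower), the fit with no filter on low counts 560, replicates 2 and 3 of each group 3362 (1469 higher and 1893 lower), and removal of the GC and length trend 1, or 4749 (2712 higher and 2037 lower) in replicates 2 and 3. With each library left out in turn the count ranged from 0 to 367, the latter without vector control replicate 1. Removal of the trend was chosen after seeing the data, as was the longest transcript as length, which moved NOTCH2 to 14.3, JAG1 to 7.44, HES1 to 23.4 and HEY1 to 0.782 RPKM.

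Of the 10 members, 0 were called except in replicates 2 and 3 (1, HEY1, beside 15.2% of all genes) and there with the trend removed (2, HEY1 and HES1, beside 21.5%). With single libraries left out the count was 0 each time. Of the pathway genes, DESeq2 called 2 (3.57%, beside 1.47% of all genes), and no filter 4 of 59 (beside 560 of all 43096). Replicates 2 and 3 called 16 (27.6%, beside 15.2% of all genes), and with the trend removed there 19 (32.8%, beside 21.5%). Between these 2 fits 14 were in common, NOTCH4 and NUMBL were lost and 5 were gained (APH1A, EP300, RFNG, SPEN and TLE3). With single libraries left out 0 to 1 were called, the latter MAML2 without vector control replicate 1. The replicate block called 0 genes, and 6 with the trend removed, and changed no call on a member or pathway gene.

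Directions reversed in replicates 2 and 3 for NOTCH1 (-0.05), JAG1 (-0.10), NRARP (-0.07) and FURIN (-0.23), and with the trend removed there for JAG1 (-0.06), NRARP (-0.01) and FURIN (-0.14). With single libraries left out, values ranged from -0.16 to 0.55 for NOTCH1, -0.07 to 0.32 for JAG1, -0.06 to 0.10 for NRARP and -0.05 to 0.36 for FURIN, each lowest without vector control replicate 1. They ranged from -0.32 to 0.27 for DLL1, -0.40 to 0.07 for NUMBL and -0.31 to 0.08 for TLE2. HES1, HES4, HEY1, NOTCH2, NOTCH3 and JAG2 kept their direction under all alternatives, though HES4 came as near to 0 as -0.01 and JAG2 as 0.01. Some of these fits had fewer libraries or more genes tested, and the cause of the changes was not tested.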
